A study of Mus musculus with 4 samples.

Results

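Beta-defensins are small secreted cationic peptides, and their genes were taken here as every row of the normalized count table whose symbol starts with Defb and a digit. These were 43 of 39179 genes, 42 of them annotated as protein coding and 1, Defb44-ps, as a pseudogene. Their transcripts were measured in the epididymal fat pad, a white adipose depot that lies against the epididymis, in 2 wild-type libraries (WT) and 2 libraries labelled as an Nck2 knockout or Nck2 mutant (KO). All 4 libraries came from mice of a mixed genetic background, and neither age, nor the part of Nck2 that was altered, nor whether replicates were separate animals is given in the labels. P-values therefore measure the spread between these libraries, which may be technical. Of the 43 genes, 16 had at least 10 reads in both WT libraries and are called detected, 20 had reads but fewer than 10 in at least 1 WT library, and 7 had 0 reads in all 4 libraries. In KO the whole family had 25 reads, against 57478 in WT.

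Beta-defensins share a fold held by conserved disulfide bonds, and many kill microbes by acting on their membranes. In mammals the family has expanded in a few gene clusters, and a large share of its members is transcribed mainly in the epithelium of the epididymis, where the peptides are secreted onto sperm. Loss of part of the chromosome 8 cluster makes male mice infertile. Others, such as Defb1 and Defb2, are peptides of the airway, the kidney and other epithelia.

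Reads assigned to genes numbered 31831904 and 34056187 in WT and 37980391 and 33880872 in KO. Nck2 itself had a WT level of 1279 and 1667 normalized counts and a KO level of 1076 and 947 (log2 fold change -0.53, SE 0.16, limma adjusted p = 0.0509), so both KO libraries were lower, but the difference missed the threshold of 0.05. It passed with DESeq2 on the recovered reads (adjusted p = 0.0184) and with a pseudocount of 5 (0.0495), and over all alternatives the adjusted p ran from 0.0184 to 0.186. Since the altered part of the gene is not given, this total does not check the genotype labels. Markers of the mature adipocyte were present in every library, with a summed level of 468350 and 320172 in WT and 1132775 and 1246478 in KO over 10 of 10 genes. Markers of the epididymal epithelium (18 of 18 genes had a read in some library, and 8 were at 0 in KO) summed to 364827 and 346731 in WT and to 1163 and 959 in KO, and those of smooth muscle to 425186 and 557688 against 14207 and 16896 (8 of 8 genes). Of the tested genes of these lists, 8 of 10 adipocyte markers rose, and 9 of 10 epididymal and 8 of 8 smooth muscle markers fell. Over all 16710 genes tested, limma called 24.4% lower and 22.4% higher. Markers of the vas deferens and seminal vesicle (8 tested, 2 lower) summed to 738292 and 1015337 in WT and 342 and 224 in KO. Akr1b7 made up most of these sums, at 695535 and 1015199 in WT and 337 and 221 in KO. The other genes of that list were far higher in WT replicate 1 than in WT replicate 2, such as Svs2 (12085 and 63.3) and Svs5 (11146 and 0.93). In KO the beta-defensin levels below fell as the sums of the epididymal, smooth muscle and vas deferens lists did, while the adipocyte sum rose. Between the WT libraries the family's sum (32875 and 23457) was higher in replicate 1, as was the adipocyte sum. The smooth muscle and vas deferens sums were higher in WT replicate 2, and the epididymal sum was nearly even. The part of the lists in the results was not tested. In bulk tissue, fewer cells of a type and less RNA per cell cannot be told apart.

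The beta-defensin genes took 0.101% of the reads assigned to genes in WT replicate 1, with an exact 95% binomial interval from 0.100% to 0.103%. Their share was 0.0740% in WT replicate 2 (0.0731 to 0.0750). In KO they took 3.16e-05% (1.63e-05 to 5.52e-05) and 3.84e-05% (2.04e-05 to 6.56e-05). Intervals cover counting error only. The WT reads were concentrated in few genes. Defb42 alone held 22.7% of the family's reads in WT replicate 1 and 39.6% in WT replicate 2, and Defb42, Defb22, Defb28, Defb23 and Defb43 together held 77.7% and 80.3%. The 20 genes with reads but fewer than 10 in at least 1 WT library held 451 WT reads in all. Defb29 alone held 264 of these, with 259 in WT replicate 1. Levels are normalized counts, the read count divided by the library's size factor, unless given per kilobase of annotated exon.

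**Figure D1:**
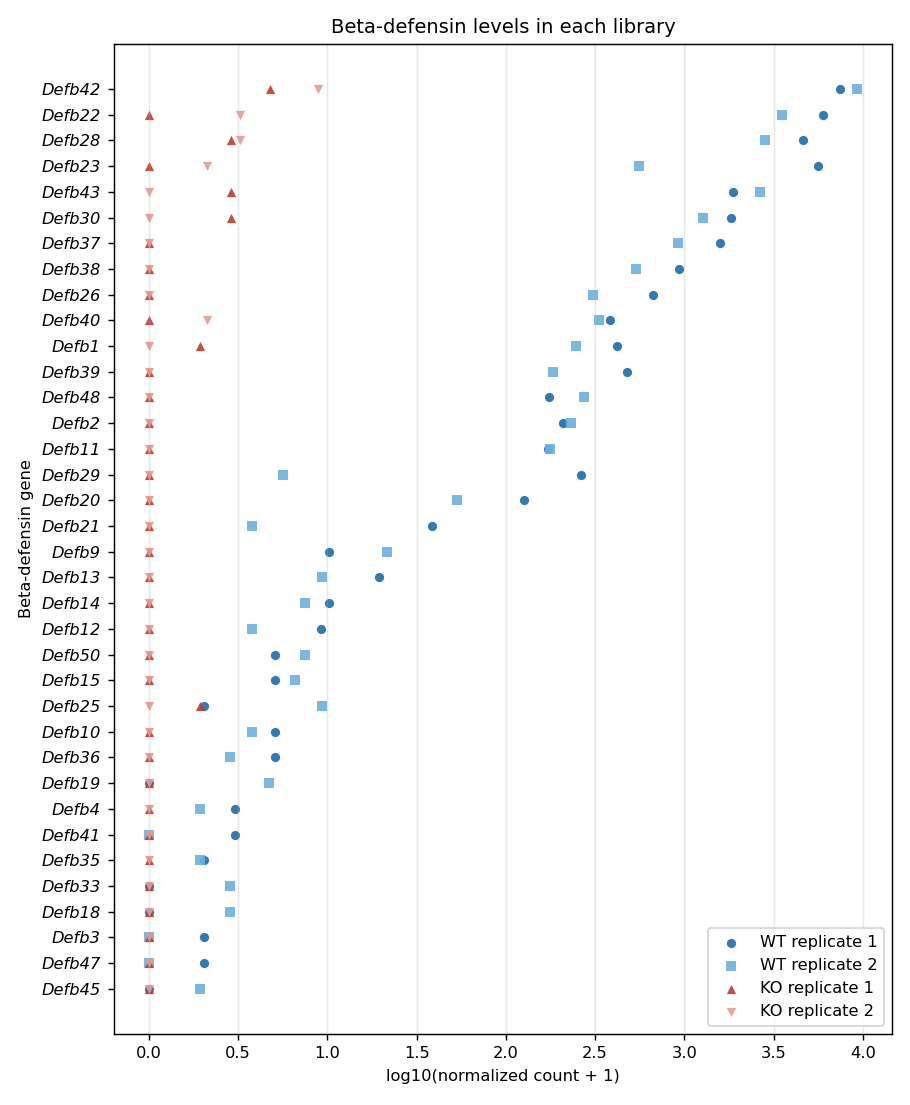
Each row is 1 of the 36 beta-defensin genes with a read in any library, and the horizontal axis gives log10(normalized count + 1) in the 2 WT (blue) and 2 KO (red) libraries, with genes ordered by WT level. The KO points lie at or close to 0 for every gene, with Defb42 the highest at 3.75 and 7.81 normalized counts, while the WT points reach 9280. For 7 genes 1 of the WT libraries had no read.

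The genes lie in 4 clusters on the GRCm38 build, on chromosomes 1, 2, 8 and 14, and the detected genes of a cluster mostly lay side by side. The chromosome 14 cluster (chr14:62977524-63058149, 5 genes) had 4 detected genes and gave 44.0% of the family's WT level. Defb42 (ENSMUSG00000054763, chr14:63046991-63058149) was the most abundant by count. It reached 7455 and 9280 in WT, against 3.75 and 7.81 in KO. Defb43 was at 1866 and 2647 in WT, with 1.87 and 0 in KO. Defb30, whose gene body overlaps the start of Defb42 on the opposite strand with no overlap of annotated exons, was at 1815 and 1266 in WT, with 1.87 and 0 in KO. Defb48 was lower, at 174 and 274, with 0 in both KO libraries. In each of these 4 genes every WT library was above every KO library, as it was in 40.6% of all genes tested. Defb47, between Defb48 and Defb43, had 1 read in WT replicate 1 and none elsewhere.

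The chromosome 2 cluster (chr2:152459055-152623053, 11 genes) gave a nearly equal share, 43.7% of the family's WT level. All 5 detected genes were the first 5 in order of position: Defb23, Defb20, Defb22, Defb26 and Defb28. Defb22, which encodes a sperm-coating defensin and is the mouse counterpart of primate DEFB126, was at 5953 and 3524 in WT, with 0 and 2.23 in KO. Defb28 was at 4636 and 2837, with 1.87 and 2.23 in KO. Defb23 was the most variable of the abundant genes, at 5636 in WT replicate 1 and 556 in WT replicate 2, with 0 and 1.12 in KO. Defb26 was at 669 and 308, and Defb20 at 125 and 52.1, both with 0 in KO. The next 2 genes in order, Defb29 (264 and 4.65) and Defb21 (37.7 and 2.79), had counts almost wholly in WT replicate 1. The last 4, Defb19, Defb45, Defb36 and Defb25, had between 1 and 10 WT reads each, and Defb25 had 1 read in KO replicate 1.

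The chromosome 8 cluster holds 24 genes over 2974 kilobases. Its first stretch (chr8:18974940-19497775, 14 genes) held detected genes at one end and none at the other. Its first 4 genes, Defb40, Defb37, Defb38 and Defb39, which were described from the epididymis, were all detected and held 5439 WT reads. Defb37 was at 1580 and 926 in WT, Defb38 at 936 and 537, and Defb39 at 475 and 183, each with 0 in KO. Defb40 was at 384 and 332, with 0 and 1.12 in KO. Next to them, Defb12 had 8 and 3 WT reads and Defb34 had none. The 8 genes from Defb14 to Defb7 at the other end held 20 reads over all 4 libraries. Among these 8 are Defb3, Defb4 and Defb14, defensins that epithelia induce on infection or inflammation. Defb14, the counterpart of human beta-defensin 3, had 9 and 7 reads in WT and 0 in KO. Defb4 had 2 and 1, and Defb3 had 1 and 0. The last stretch (chr8:21776599-21948850, 9 genes) had 3 detected genes at lower levels. Defb1, a constitutive antimicrobial peptide of many epithelia, was at 421 and 247 in WT, with 0.94 and 0 in KO. Defb2 was at 207 and 232 and Defb11 at 171 and 176, with 0 in KO. The other 6, Defb50, Defb10, Defb9, Defb15, Defb35 and Defb13, had between 2 and 31 WT reads and no KO read. Defb33, alone between the stretches, had 2 reads in WT replicate 2. In the chromosome 1 cluster (3 genes), Defb41, a gene of the initial segment and caput of the epididymis, had 2 reads in WT replicate 1, Defb18 had 2 in WT replicate 2 and Defb44-ps had none.

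**Figure D2:**
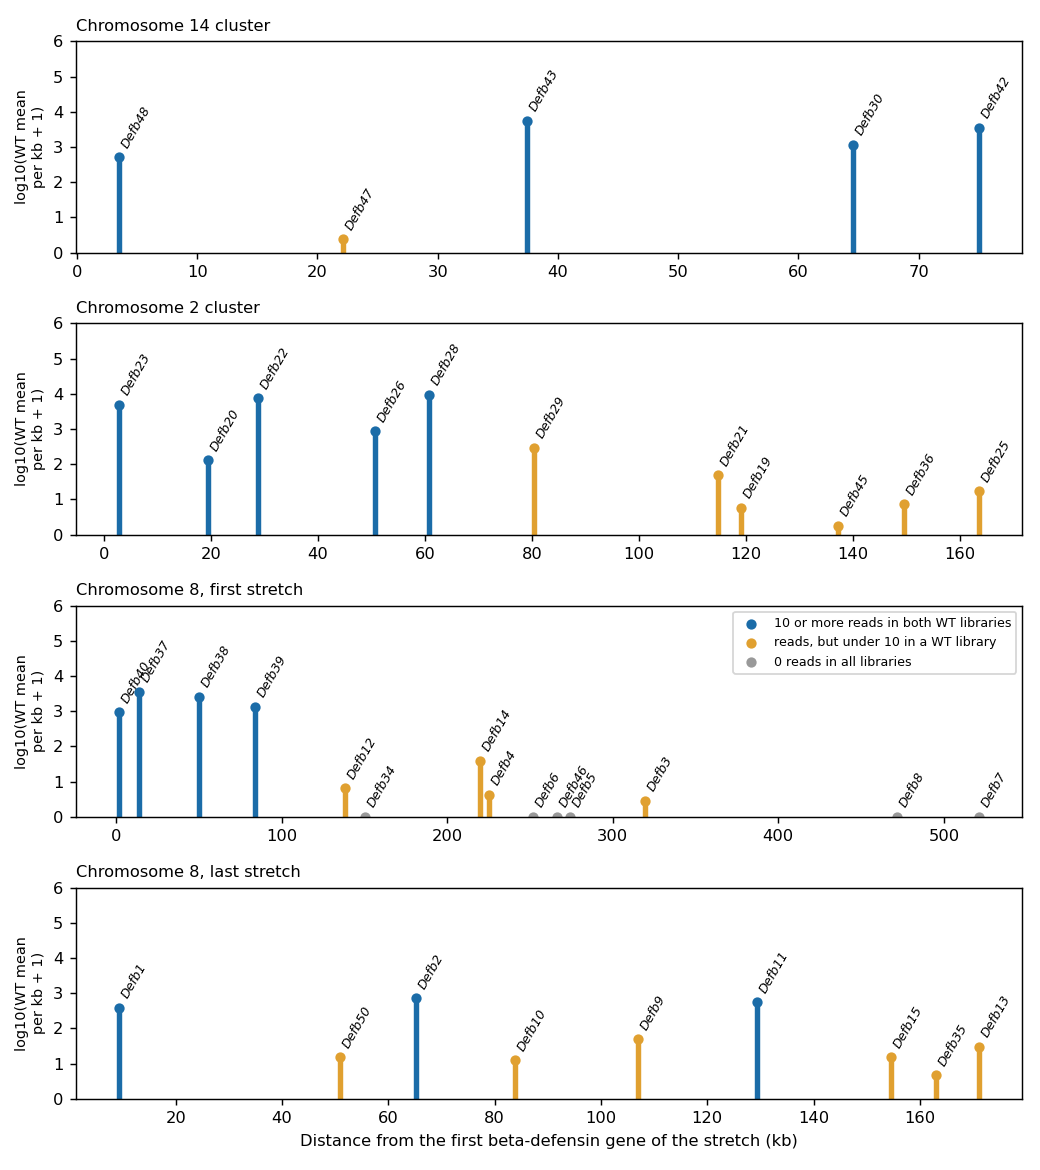
Each panel is a stretch of a cluster, with distance in kilobases from its first beta-defensin gene on the horizontal axis and log10(mean WT normalized count per kilobase of exon + 1) on the vertical axis. Colours mark the 16 detected genes, genes with fewer reads and genes with 0 reads. On chromosome 2 the first 5 genes are detected, in the first stretch of chromosome 8 the first 4 are, and 6 of its 14 genes have no read.

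Per kilobase of exon the order of WT levels changed. Defb28 was first at 11680 and 7146 normalized counts per kilobase, then Defb22 at 9480 and 5612, Defb43 at 4572 and 6488, Defb23 at 9033 and 892, Defb37 at 4489 and 2630 and Defb42 at 3074 and 3827. The ranges of neighbours in this order overlapped over the 2 WT libraries. Genes farther apart in it did separate: both values of Defb28 lay above those of Defb43, Defb37 and Defb42, and both values of Defb22 and of Defb43 lay above those of Defb37 and Defb42. Defb42 depends on the gene model. Over all annotated exons (2425 bases) its mean was 3450 per kilobase, and over its longest coding transcript (618 bases) it was 13540, the highest of the family. The lowest detected gene was Defb20, at 182 and 75.5.

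The 7 genes with 0 reads in all libraries were Defb34, Defb6, Defb46, Defb5, Defb8 and Defb7 on chromosome 8 and Defb44-ps on chromosome 1. A count of 0 over the 2 libraries of a group allows up to 3 reads in that group, so a level under that was not detectable at this depth. A read was 50 bases long, and 10 of the 43 genes have transcripts that share a stretch of 50 bases with another gene's transcript in GENCODE M21. Of the detected genes these were Defb2 (20.7% of its 50-base stretches, shared with Defb9, Defb10 and Defb11), Defb11 (19.8%, the same group) and Defb42 (1.69%). Reads of Defb2, Defb9, Defb10 and Defb11 may therefore be divided among these copies or left out by the counting. Defb8 and Defb4 share such stretches too (9.66% and 5.68%). Defb15 overlaps Gm36879 on the other strand, and the sources used here do not give the strand setting of the counting, so its 10 WT reads may belong to either gene.

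The WT libraries differed from each other, and the detected genes of a cluster mostly differed in 1 direction. Of the 16 detected genes, 11 were higher in WT replicate 1 and 5 in WT replicate 2, and for 13 the exact 95% interval of the ratio, which covers counting error only, excluded 1. All 5 detected chromosome 2 genes were higher in WT replicate 1, from 1.63-fold for Defb28 (1.56 to 1.71) to 10.1-fold for Defb23 (9.31 to 11). Defb29 beside them was 56.7-fold higher there (24.0 to 176) and Defb21 13.5-fold (4.28 to 68.5). Defb25, at the far end of the cluster, went the other way, with 1 and 9 WT reads (ratio 0.122, 0.00278 to 0.878). Between Defb21 and Defb25, Defb19 had 0 and 4 WT reads, Defb45 had 0 and 1, and Defb36 had 4 and 2. The first 4 genes of chromosome 8 were also higher in WT replicate 1, with ratios from 1.16 for Defb40 (0.998 to 1.34) to 2.59 for Defb39 (2.19 to 3.08). On chromosome 14, Defb42 (ratio 0.803, 0.779 to 0.828), Defb43 (0.705, 0.664 to 0.748) and Defb48 (0.637, 0.524 to 0.772) were higher in WT replicate 2, and Defb30 was 1.43-fold higher in WT replicate 1 (1.34 to 1.54). In the last stretch of chromosome 8, Defb1 was 1.71-fold higher in WT replicate 1 (1.46 to 2.00), while the intervals for Defb2 (0.738 to 1.08) and Defb11 (0.786 to 1.21) included 1. These ratios compare 2 libraries of a group and have no replicate of their own.

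Some other genes of the male tract were uneven between the WT libraries and some were not. Crisp1, the most abundant gene of the epididymal epithelium list, was nearly even at 343811 and 334537, and so was Crisp4 at 450 and 400 (ratio 1.13, 0.984 to 1.29). Adam7 was at 9918 and 6092, and Lcn5 at 1825 and 94.9. Gpx5, a caput gene, went the other way at 12.2 and 207, and Lcn8 and Lcn9, genes of the proximal caput, were at 1.02 and 23.3 and at 0 and 22.3. Pate4 was at 2304 and 64.2, and Svs4, which encodes a seminal vesicle protein, at 11735 and 6.51. The part of these differences in the beta-defensin ratios was not tested.

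**Figure D3:**
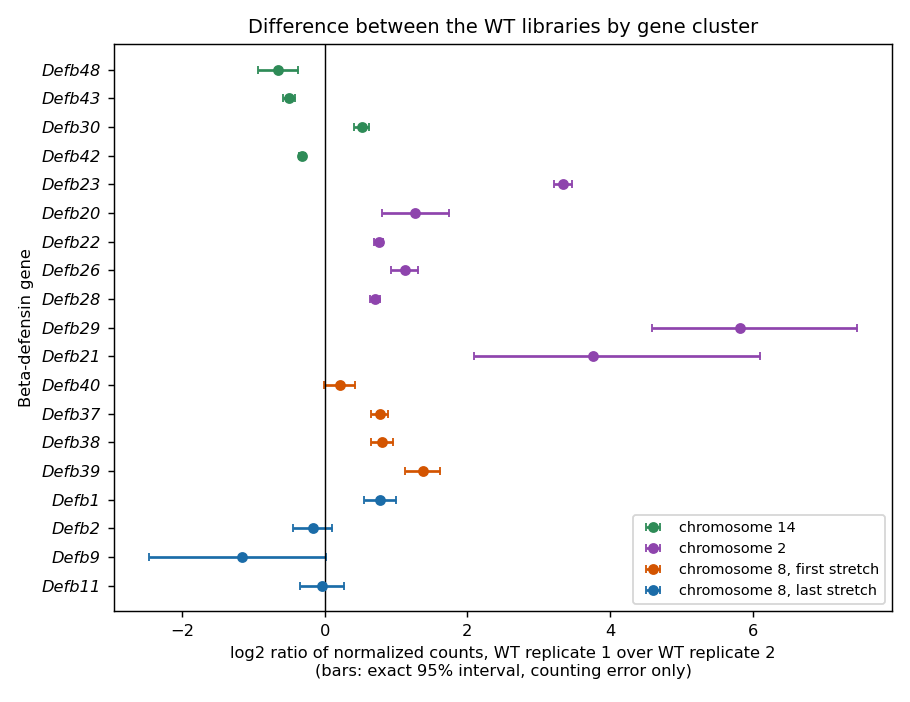
The horizontal axis gives the log2 ratio of WT replicate 1 over WT replicate 2 with its exact 95% interval (counting error only) for the 16 detected genes and for Defb29, Defb21 and Defb9, coloured by cluster. The chromosome 2 genes shown and the first 4 of chromosome 8 lie right of 0, and 3 of the 4 chromosome 14 genes shown lie left of it. Defb25 of chromosome 2, which is not shown, went the other way, with 1 and 9 WT reads.

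The design asks which transcripts differ between the Nck2 genotypes. In 29 of the 36 beta-defensin genes with a read the higher KO value lay below the lower WT value, beside 36.9% of all genes with a read. A mean of at least 10 normalized counts over the 4 libraries was needed for the test, and 18 beta-defensin genes passed it, each through its WT libraries alone, so they were bound to differ and their number supports nothing further. The groups did not overlap in any of the 18, beside 40.6% of all genes tested. Of these 18, 16 fell, 0 rose and 2 did not pass, against 24.4% of 16710 genes called lower and 22.4% called higher by limma. At an unadjusted limma p under 0.05, 18 were lower and 0 higher, beside 28.6% and 26.7% of all genes tested. In turn, edgeR and DESeq2 on the recovered reads called 16 and 18 lower and 0 higher, beside 24.4% and 23.5% of genes called lower and 21.0% and 21.1% called higher. Without the filter, 24 of 36 were lower and 0 higher, beside 19.0% and 15.0%. The median fitted log2 fold change was -8.52, or -8.12 with the 10 genes at 0 in KO set to their bound, and -0.01 over all genes tested. The 16 fitted values ran from -6.36 to -11.32, with adjusted p-values from 0.000551 to 0.00465. A negative fold change means a lower level in KO, on the scale log2(normalized count + 1), so the pseudocount bears on its size where KO is near 0.

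Defb28 had the smallest p, with a log2 fold change of -10.22 (SE 0.30, adjusted p = 0.000551), and Defb42 fell by 10.33 (SE 0.34, adjusted p = 0.000567). Defb22 fell by 11.32 (SE 0.65, adjusted p = 0.00106). Defb23 fell by 10.25 with a larger SE of 1.21 (adjusted p = 0.00465), and its WT libraries lay 10.1-fold apart. The 2 genes that did not pass were Defb29 (-5.27, SE 1.93, adjusted p = 0.0871) and Defb21 (-3.60, SE 1.25, adjusted p = 0.0772), whose WT values lay apart. Both passed with DESeq2 on the recovered reads (adjusted p = 0.0358 and 0.0126), and both passed without WT replicate 2, the library in which they were near 0 (adjusted p = 0.0125 each). Without WT replicate 1 neither reached the mean needed for the test, and without either KO library the adjusted p ran from 0.182 to 0.2. With edgeR it was 0.12 for Defb29 and 0.113 for Defb21. The authors' deposited table gave an adjusted p under 0.05 for 20 of the 25 beta-defensin genes with a value there, all lower in KO, beside 21.7% of its genes called lower. It includes Defb9, Defb13, Defb14 and Defb21 and leaves out Defb29 (adjusted p = 0.0576 in the authors' deposited table).

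**Figure D4:**
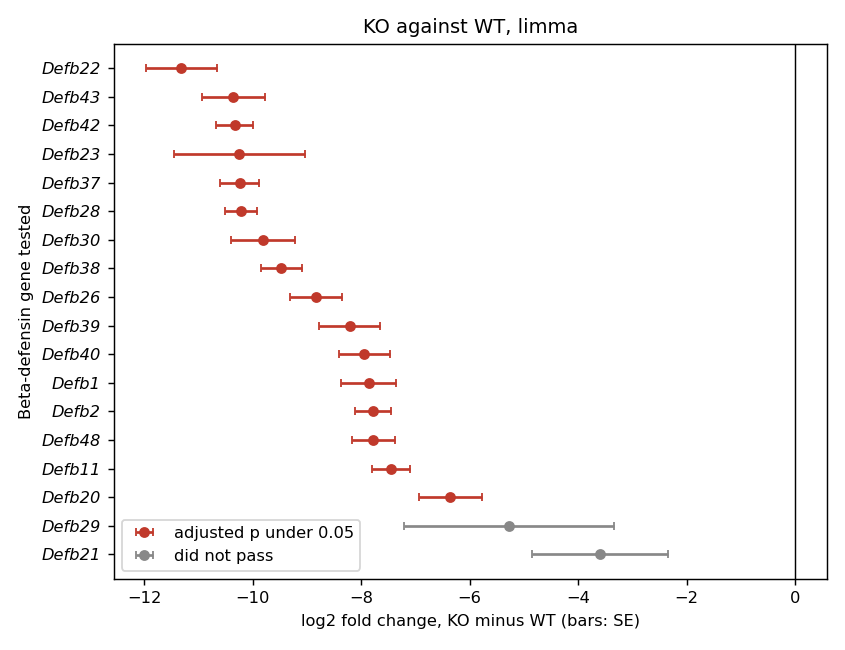
Points are log2 fold changes (KO minus WT, from normalized counts with 1 added) of the 18 beta-defensin genes tested, with SE bars. Red marks the 16 with an adjusted p under 0.05, and grey marks Defb29 and Defb21, which did not pass and have the longest bars (SE 1.93 and 1.25).

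KO reads were few but not absent. KO replicate 1 had 12 beta-defensin reads and KO replicate 2 had 13, spread over 9 genes, and only Defb42 and Defb28 had reads in both. Defb42 had 4 and 7, Defb28 had 2 and 2, Defb22 had 0 and 2, and Defb43 and Defb30 each had 2 and 0. Defb23 and Defb40 had 1 read in KO replicate 2, and Defb1 and Defb25 had 1 in KO replicate 1. Of the 16 detected genes 8 had no KO read. The genes with KO reads were mostly those with most WT reads. The 6 most abundant in WT all had some, and the detected genes together stood in KO at 0.0441% of their WT level (exact 95% interval 0.0282 to 0.0656), or at 0.0343% without Defb42. For comparison, KO reads were spread by the pooled read ratio of all detected genes, with Defb42 itself included. This gave 7.28 KO reads for Defb42, where 11 were counted, and 4.05 for Defb22 (2 counted). It gave 3.20 for Defb28 (4 counted), 2.58 for Defb23 (1 counted) and 1.07 for Defb37 (0 counted).

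Single genes had wide intervals. Defb42 was 1501-fold lower in KO (839 to 3007), Defb28 1814-fold (708 to 6659), Defb22 4598-fold (1273 to 37970) and Defb43 2232-fold (618 to 18440). These intervals overlap one another. Against a floor of 3 reads over the 2 KO libraries, Defb37 was at least 810-fold lower, Defb38 at least 476-fold, Defb26 at least 315-fold and Defb39 at least 211-fold. Crisp1 stood in KO at 0.0299% of its WT level (0.0259 to 0.0344), Adam7 at 0.0257% (0.00701 to 0.0659) and Akr1b7, abundant in the vas deferens, at 0.0329% (0.0303 to 0.0358). These 3 genes were chosen after their values were seen, and other genes of the lists stood higher. Over the whole epididymal epithelium list the KO level was 0.301% of WT (0.288 to 0.314), and without Crisp1 it was 5.90% (5.63 to 6.18). Of the 1901 KO reads of the list without Crisp1, 1876 were of Sult1e1, which stood at 28.0% of its WT level. Among genes of that list with few reads, Cst8 was at 17.5% (4.40 to 50.8) and Rnase10 at 14.4% (6.91 to 27.2).

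**Figure D5:**
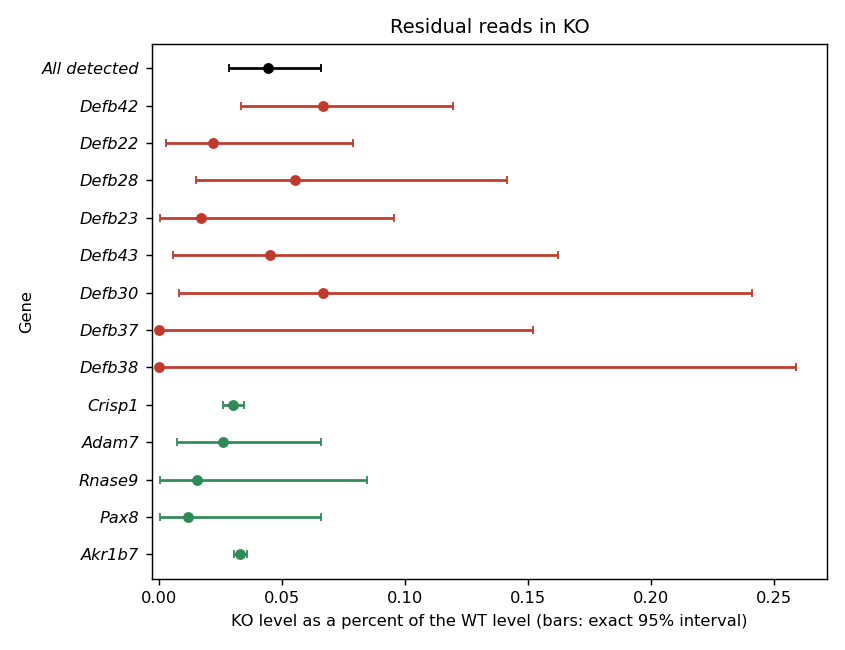
The horizontal axis gives the KO level as a percent of the WT level, with exact 95% intervals for counting error, for the detected beta-defensin genes together (black), for the 8 with 1000 or more WT reads (red) and for 5 other male tract genes chosen after their values were seen (green). The pooled value is 0.0441%, and the intervals of the single beta-defensin genes overlap it.

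Genes of the defensin family outside the rule were read only in WT or not at all. Spag11a and Spag11b, epididymal defensin-like genes within the chromosome 8 cluster, were at 184 and 61.4 and at 6.11 and 44.7 in WT, with 0 in KO, so they were highest in different WT libraries. Both fell, with a log2 fold change of -6.75 for Spag11a (SE 0.65, adjusted p = 0.00293) and of -4.17 for Spag11b (SE 1.03, adjusted p = 0.0327, or 0.0726 with edgeR and 0.0778 with a pseudocount of 5). Without KO replicate 1 or KO replicate 2 the adjusted p of Spag11b was 0.0956 and 0.101. Spag11a shares 35.7% of its 50-base stretches with Gm45826. All 30 alpha-defensin rows had 0 reads. Most of these rows are pseudogenes by their symbol (Defa-ps), and the others include genes of intestinal Paneth cells.

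Receptors and partners reported for beta-defensins did not move in 1 direction. Of 9 listed, 6 were tested, 1 fell and 2 rose, with a median log2 fold change of 0.56. Over all genes tested, limma called 24.4% lower and 22.4% higher, so these few calls do not set the list apart. Ccr6, the chemokine receptor that several beta-defensins bind, had few reads in any library, with 3.06 and 6.51 normalized counts in WT and 6.56 and 6.69 in KO, and its ligand Ccl20 had no read. Ccr2 rose by 1.65 (SE 0.22, adjusted p = 0.00653) and Tlr4 by 0.97 (SE 0.10, adjusted p = 0.00325), in the same libraries in which macrophage markers (5 of 5 tested rose) summed to 10204 and 9413 in WT and 22383 and 22301 in KO. Mc4r fell, from 34.6 and 27.0 to 0 and 0. Of 16 other antimicrobial peptides and proteins, 11 were tested, 3 fell and 3 rose, near the same shares of all genes, with a median of 0.33. Ltf, encoding lactoferrin, fell by 8.35 (SE 0.84, adjusted p = 0.00322) and Lcn2 by 3.35 (SE 0.16, adjusted p = 0.00085), while Lyz2, a macrophage lysozyme, rose by 1.10 (SE 0.11, adjusted p = 0.0032). Camp, encoding the cathelicidin, was at 28.5 and 2.79 in WT and 0 and 1.12 in KO.

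Of 12 regulators of epididymal transcription, 10 were tested, 6 fell and 2 rose, beside 24.4% of all genes tested called lower and 22.4% called higher. Genes listed as markers of other epithelia that make beta-defensins (skin, airway and mouth) summed to 1164 and 1246 in WT and 547 and 169 in KO. Krt5 and Krt14 held most of the WT sums, and whether their reads came from those epithelia was not tested. Of 10, 4 were tested and 2 fell, Krt5, at 666 and 746 against 0 and 0, and Muc5b. Krt14 had 292 and 372 normalized counts in WT, against 457 and 63.6 in KO, so it was highest in a KO library, and Krt10 had 123 and 98.6 against 79.6 and 94.8. Neither passed (adjusted p = 0.465 and 0.256). Krt13, Lor, Ivl and Scgb1a1 had at most 8 reads in any library. Of 8 neutrophil markers 4 were tested, with a smallest limma adjusted p of 0.433 (Elane), Ly6g had no read, and the list summed to 153 and 217 in WT and 122 and 242 in KO. Sperm and testis markers (13 listed, 10 tested, 3 lower) summed to 871 and 3002 in WT and 260 and 455 in KO. Their sum was higher in the WT library in which the family's total was lower. Most of the KO sum came from Sox9 (186 and 242) and Zpbp (41.2 and 58.0), and neither passed (limma adjusted p = 0.102 and 0.7).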

How the data were processed

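Reads were processed with TopHat2 2.0.10, HTSeq 0.5.3, DESeq2 1.4.5 and CASAVA 1.8 on build GRCm38, as named without roles in the submitters' processing notes. The deposited signal is a normalized count per gene and library, and its values are whole multiples of 1 step per library, as read counts over a size factor give. A second table deposited by the authors holds log2 fold changes, a score (the test statistic), p-values and adjusted p-values. Whole reads came back from the step between low values (100% of values whole within 0.01, size factors 0.9815, 1.0748, 1.0673 and 0.8962). All 39179 genes were fitted together, filtered at a mean of 10 or more, with limma 3.58.1 (R 4.3.3) on log2(normalized count + 1), intensity trend and Benjamini-Hochberg adjustment at 0.05. Alternatives were other scalings, filters and pseudocounts, a replicate block, each library left out, and the recovered reads with edgeR 4.0.16 or DESeq2 1.42.0. Positions, exon lengths and 50-base overlaps came from GENCODE M21. Stretches of the chromosome 8 cluster are split at gaps over 500 kilobases, a choice made after seeing the values. Named genes are the 12 beta-defensin genes of highest WT mean, the 6 with most KO reads, other members by their range, Nck2, Spag11a, Spag11b and up to 4 genes per list by smallest p. Crisp1, Akr1b7, Lcn8, Lcn9, Pate4, Svs4, Ccr6, Camp and other genes named outside that rule were chosen after their values were seen. The members and lists were chosen with earlier results of these data known. The result of 1 listed gene is not reported here.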

Additional observations from a re-analysis of the deposited data

How the results depend on the processing

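The 18 beta-defensin genes tested passed the filter through their WT libraries alone, so a lower KO level was bound and a constant count supports nothing further. The number of beta-defensin genes lower in KO was 16 of 18 under both other pseudocounts, both other scalings, edgeR, robust moderation and the replicate block. It was 15 of 16 with a mean of 50 or more, 24 of 36 without a filter (beside 19.0% of all genes) and 18 of 18 with DESeq2 (beside 23.5%). The share of all genes called lower was 24.4% under the main setting and with edgeR. It was not counted under the settings for which no share is given here. Leaving out genes that share 50-base stretches, an alternative chosen after seeing the data, gave 13 of 15. With 1 library left out in turn, the log2 fold change of Defb28 ran from -9.86 to -10.57 and that of Defb23 from -8.58 to -11.92. The number higher was 0 throughout. The libraries share only a replicate number (correlation of deviations -0.009 across genes), and the block left the count at 16. Without a library, 1 group has a single sample that is assumed to vary like the other. The number detected was 29 with at least 1 read and 25 with at least 3 reads in both WT libraries, 16 with at least 50, and 17 to 19 with 1 WT library left out. Without Defb42 the mean WT share of reads fell from 0.0877% to 0.0616% and the KO share from 3.50e-05% to 1.94e-05%. Shares with 1 library left out ran from 0.0740% to 0.101% in WT and from 3.16e-05% to 3.84e-05% in KO. The KO level as a percent of WT was 0.0439% over genes with 1000 or more WT reads and 0.0343% without Defb42, the latter chosen after seeing the data. TMM and upper-quartile scaling moved the median of all genes by -0.006 and 0.016. With 25 KO reads in all, the exact intervals of the KO level as a percent of WT overlapped among the 8 genes with 1000 or more WT reads.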
